A study of Mus musculus with 31 samples.

Results

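The genes described here encode the proteasome, the protein-degrading machine of the cell, and its interferon-inducible form, the immunoproteasome. They were taken by symbol (Psma, Psmb, Psmc, Psmd or Psme followed by a digit, without Psmb11), with 1 array probe set per gene, the one of highest mean level among the probe sets that name a single gene. That gave 43 of 18192 genes. Of these, 41 encode subunits, activators or assembly chaperones of the proteasome. Psmc3ip and Psme3ip1 came in through their symbols only, as their products are no subunits. Psme2, the partner of Psme1 in the PA28 activator, was read only by a probe set shared with Psme2b and has no value here. All 43 members lay above the filter on low values, which kept 14017 genes.

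The series holds 31 Affymetrix mouse arrays of RNA in 6 groups. The 12 thymus samples came from untreated C57BL/6 mice labelled NDR1+/+ (WT), NDR1+/- (HT) or NDR1-/- (KO), 4 per genotype, of which 2 were female and 2 male. NDR1 is a protein kinase of the Hippo-related NDR family encoded by Stk38. The 19 tumors came from C57BL/6 mice of the same genotypes given 100 mg/kg N-ethyl-N-nitrosourea (ENU, an alkylating mutagen), and were taken when a tumor developed or at 9 months after ENU. They numbered 5 WT, 7 HT and 7 KO, and 2 of them, 1 HT and 1 KO, were from males. Titles call the samples thymocytes or tumor cells, but the tissue label is thymus for all. The sources used here do not give how the Stk38 gene was disrupted, the age of the thymus donors or whether each array came from its own animal. The p-values therefore measure the spread between these samples, and tumor state, ENU treatment and time since treatment cannot be told apart.

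The core of the proteasome is a barrel of stacked rings, with alpha subunits outside and beta subunits inside. In the constitutive form, Psmb5 carries the chymotrypsin-like activity, Psmb6 the caspase-like and Psmb7 the trypsin-like activity. Interferon-gamma induces Psmb8, Psmb9 and Psmb10, which take the places of Psmb5, Psmb6 and Psmb7 in newly built particles and change the peptides made for MHC class I presentation. Lymphoid cells make these immunosubunits without stimulation, whereas the cortical epithelium of the thymus makes its own beta subunit, Psmb11. A cap of ATPase and non-ATPase subunits (19S) recognises and unfolds substrates, and the ring of Psme1 and Psme2 (PA28) opens the barrel in its place. The transcription factor NRF1, encoded by Nfe2l1, raises most proteasome genes together when proteasome activity is short.

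All levels below are log2(intensity + 1), and every difference is a difference of such log2 levels. The level of 1 probe set was not set against that of another, so differences between genes are read only as changes between groups. A gene was called when its adjusted p (limma, Benjamini-Hochberg over the 14017 genes) was under 0.05.

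Stk38, the targeted gene, was read first. In thymus its mean level was 11.86 ± 0.15 (SD, n = 4) in WT, 11.44 ± 0.11 in HT and 10.92 ± 0.33 in KO. KO minus WT was -0.94 (limma adjusted p = 0.0011) with this probe set. With the mean of all single-gene probe sets of Stk38 it was -0.25 and not called (limma adjusted p = 0.45). In tumors the mean level with the probe set used was 12.15 ± 0.72 (n = 5) in WT, 11.77 ± 0.75 (n = 7) in HT and 11.09 ± 1.89 (n = 7) in those labelled KO. Of the tumors labelled KO, 3 (replicates 01, 02 and 05) had levels of 8.73 to 9.52, below every tumor labelled WT, and 4 (03, 04, 06 and 07) had 11.47 to 13.08, not below the lowest tumor labelled WT at 11.38. Whether the probe set lies in the disrupted part of the gene is not given. These samples are called tumors labelled KO below, and the limma comparisons that use them are also given without the 4. The pair tests between tumor genotypes are given only with them.

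Other measures also separated tumors from thymi. The 3'/5' ratio of control probe sets (the mean of the actin and Gapdh log2 ratios, a measure that rises with RNA degradation) was 0.26 to 0.50 in thymi and 0.18 to 4.87 in tumors, and 15 of 19 tumors lay above the highest thymus. The mean level of thymocyte markers was 13.02 to 13.20 in thymi and 8.72 to 12.33 in tumors, where 8 of 10 of these markers were lower. The mean of the B and plasma cell markers was 6.50 to 8.11 in thymi and 5.15 to 12.87 in tumors. In 4 tumors (HT 01, HT 03, KO 04 and KO 06) it was 11.39 or more. None of the 9 B and plasma cell markers was called between tumors and thymi. Fibroblast and endothelium markers were higher in tumors for 4 of 7, macrophage and dendritic cell markers for 2 of 11. Thymic epithelium markers were lower for 5 of 10, including Psmb11, with a difference of -1.80. These are counts of called genes, and of all genes tested 12.6% were called lower in tumors and 11.6% higher. In these bulk samples, fewer cells of a type and less RNA per cell cannot be told apart.

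In the untreated thymus, most proteasome genes varied little between samples of a group. The median over the 43 members of the SD within a group was 0.0955, against 0.194 over all genes tested. Members and all genes were not matched for mean level, here or for tumors below. The within-group SD ran from 0.0439 for Psmc1 to 0.249 for Psmb3 and 0.259 for Psmd10. The smallest median SD of a role group, 0.0586, was that of the constitutive catalytic subunits, and the catalytic immunosubunits had 0.107. In tumors the members' median SD was 0.574, against 0.636 over all genes, with 0.947 for the constitutive catalytic subunits and 0.71 for the immunosubunits.

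No member was called between thymus genotypes. Over all genes tested, 0.185% were called between KO and WT, 0.0214% between HT and WT and 0.0571% between KO and HT. In the same order, 0, 1 and 2 members and 701, 946 and 1177 of all genes had an unadjusted p under 0.05. The member that passed for HT against WT was Psmd8, a lid subunit of the 19S cap, at +0.18 (SE 0.062, unadjusted p = 0.0157, limma adjusted p = 0.70). Psmd8 was at -0.15 for KO against HT, as was Psmb6. The median difference of the members was -0.03 (KO minus WT), +0.03 (HT minus WT) and -0.06 (KO minus HT), where all genes had -0.01, +0.01 and -0.02.

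The immunosubunits overlapped between thymus genotypes, as their values show sample by sample. Psmb10, the immunosubunit of the trypsin-like site, had levels of 10.72, 10.53, 10.64 and 10.70 in WT thymi and of 10.92, 10.70, 10.85 and 10.80 in KO thymi. The lowest KO value lay within the WT range, and the difference was +0.17 (SE 0.080, unadjusted p = 0.061, limma adjusted p = 1.0). In HT thymi Psmb10 was 10.83, 10.89, 10.65 and 10.75. Psmb9 had 10.86, 10.76, 10.57 and 11.00 in WT thymi and 11.32, 10.98, 10.73 and 10.73 in KO thymi, a difference of +0.14 (SE 0.12, adjusted p = 1.0). Psmb8 had 12.83, 12.73, 12.69 and 12.77 in WT and 12.92, 12.84, 12.75 and 12.63 in KO, a difference of +0.03 (SE 0.070, adjusted p = 1.0).

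Beside them, 1 of the 12 MHC class I presentation genes was called in KO against WT thymus. This was Nlrc5, the transactivator of MHC class I genes, with levels of 9.10, 9.09, 8.29 and 8.33 in WT thymi (the first 2 female) and 9.63, 9.70, 8.77 and 9.00 in KO thymi in the same order of sex. The difference was +0.57 (SE 0.088, limma adjusted p = 0.028). A fit that added the 3'/5' ratio gave +0.57 again, without a call (adjusted p = 0.061). Within each sex, both KO values lay above both WT values. Neutrophil marker means moved with genotype as well, from 7.61 ± 0.92 in WT to 5.73 ± 0.71 in KO thymi (n = 4 each), and their part in any difference was not tested.

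**Figure D1:**
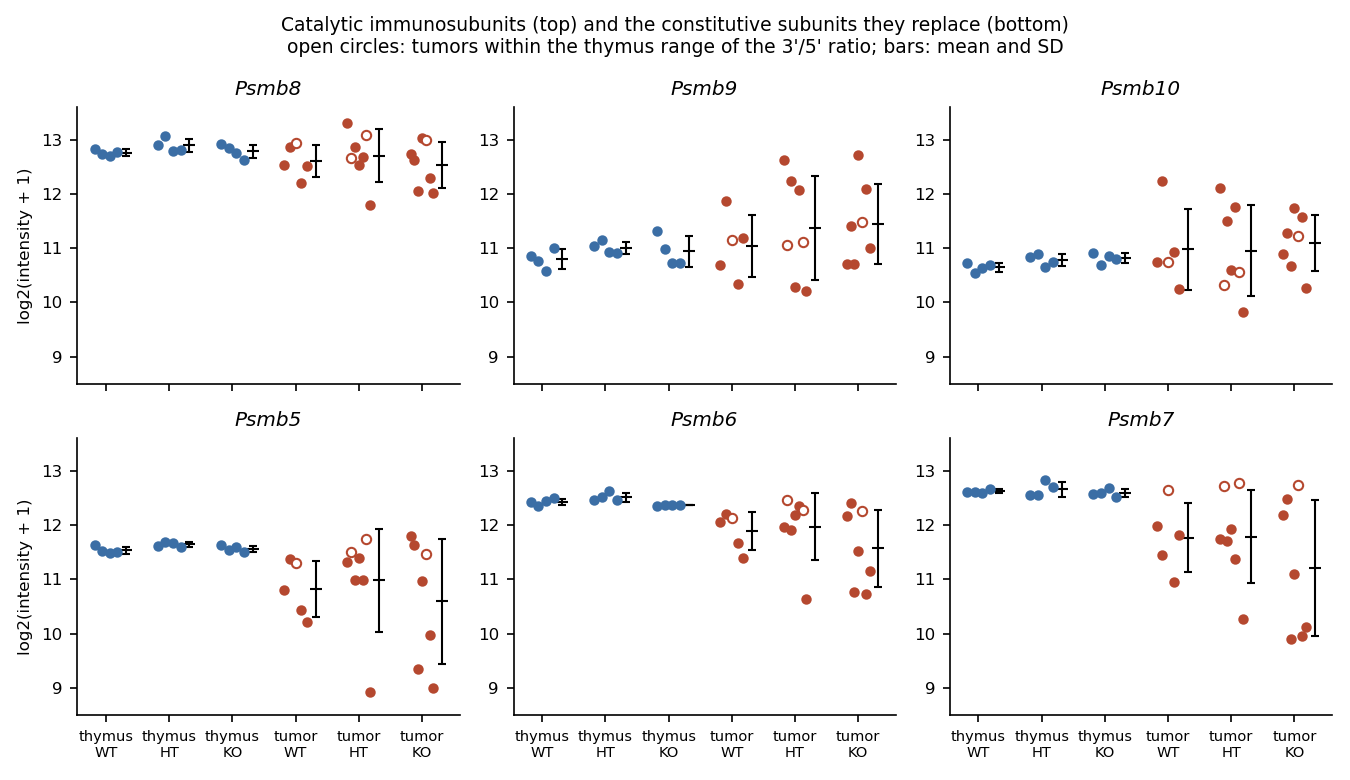
Level of the 6 catalytic subunits, log2(intensity + 1), in every array of the 6 groups, with the mean and SD of each group as bars and the 4 tumors whose 3'/5' control ratio lies within the thymus range as open circles. Thymus values of Psmb5 sit between 11.49 and 11.69 while tumors reach down to 8.92, and tumor values of Psmb9 run from 10.21 to 12.71.

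Each immunosubunit gene lies on another chromosome than its constitutive counterpart, and the promoters of 2 such pairs are shown, because the tumor comparison turns on them. The sequences are the 250 bases before the start of the gene in RefSeq (assembly GRCm38.p6), 5' to 3' on the gene's strand. Capitals mark a match to a searched motif.
Psmb8, immunosubunit, chr17:34197945-34198194, plus strand: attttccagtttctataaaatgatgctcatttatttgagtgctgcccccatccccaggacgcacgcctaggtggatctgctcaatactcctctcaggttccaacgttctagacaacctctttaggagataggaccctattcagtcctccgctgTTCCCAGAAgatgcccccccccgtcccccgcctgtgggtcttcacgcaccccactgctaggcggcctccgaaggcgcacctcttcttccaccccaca
Psmb9, immunosubunit, chr17:34187331-34187580, minus strand: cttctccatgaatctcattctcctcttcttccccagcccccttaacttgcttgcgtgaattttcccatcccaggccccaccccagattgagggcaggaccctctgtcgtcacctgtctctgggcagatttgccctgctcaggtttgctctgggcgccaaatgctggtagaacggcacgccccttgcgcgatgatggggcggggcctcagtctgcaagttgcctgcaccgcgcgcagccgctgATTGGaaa
Psmb5, constitutive counterpart of Psmb8, chr14:54617996-54618245, minus strand: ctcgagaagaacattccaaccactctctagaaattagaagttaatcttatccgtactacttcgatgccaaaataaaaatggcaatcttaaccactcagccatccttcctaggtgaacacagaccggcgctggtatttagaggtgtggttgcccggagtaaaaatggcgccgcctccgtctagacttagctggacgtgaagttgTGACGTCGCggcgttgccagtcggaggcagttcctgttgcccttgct
Psmb6, constitutive counterpart of Psmb9, chr11:70525107-70525356, plus strand: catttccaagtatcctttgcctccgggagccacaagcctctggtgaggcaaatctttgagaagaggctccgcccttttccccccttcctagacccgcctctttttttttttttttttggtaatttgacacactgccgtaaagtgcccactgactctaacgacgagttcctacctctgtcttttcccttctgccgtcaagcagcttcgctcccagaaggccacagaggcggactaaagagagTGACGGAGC
Psmb7 has no window in the table, and that of Psmb10 holds no match to any searched motif.

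The motifs were searched on both strands in the 39 windows of 36 members, 7 members having none, and in all 32851 windows of the table. The gamma-activated site (TTCNNNGAA) was found in 1 member window (2.56%, against 7.02% of all windows), that of Psmb8, starting 97 bases before the start. The core of the antioxidant response element bound by NRF1 (TGACNNNGC) was in 5 member windows (12.8%, against 10.2%). These were those of Psmb5, at 47 bases, Psmb6, at 9 bases, Psmc6, Psmd9 and Psmd12. The interferon-stimulated response element core (GAAANNGAAA) was in 3 (7.69%, against 2.98%), of Psmb3, Psmd4 and Psmd9. The CCAAT box (CCAAT) was in 15 (38.5%, against 33.8%), Psmb9 among them at 8 bases. No searched motif overlapped another in the windows printed. A match says only that these letters are there.

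In tumors, the constitutive catalytic subunit Psmb7 fell against thymus. Psmb5 and Psmb6 had differences of the same sign that did not pass, and no immunosubunit was called. Psmb7, which carries the trypsin-like site, was 12.51, 12.60 and 12.83 (lowest, median and highest) in the 12 thymi and 9.89, 11.74 and 12.78 in the 19 tumors. It was called, with a difference of -0.89 (SE 0.32, limma adjusted p = 0.041), and 15 of 19 tumors lay below all thymi. Psmb6 was 12.35, 12.43 and 12.63 in thymi and 10.64, 12.06 and 12.45 in tumors. Its difference of -0.53 was not called (SE 0.20, adjusted p = 0.052), although 16 of 19 tumors lay below all thymi. Psmb5, the chymotrypsin-like subunit, was 11.49, 11.59 and 11.69 in thymi and 8.92, 11.00 and 11.79 in tumors. Here 15 tumors lay below all thymi and 2 above, and the difference was -0.67 (SE 0.31, adjusted p = 0.11).

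The immunosubunits lay closer to their thymus levels. Psmb8 was 12.63, 12.80 and 13.06 in thymi and 11.79, 12.66 and 13.30 in tumors, a difference of -0.24 (SE 0.15, adjusted p = 0.24; +0.16 with the mean of its probe sets). Psmb9 was 10.57, 10.92 and 11.32 in thymi and 10.21, 11.14 and 12.71 in tumors, a difference of +0.22 (SE 0.26, adjusted p = 0.56), with 3 tumors below and 8 above all thymi. Psmb10 was 10.53, 10.74 and 10.92 in thymi and 9.82, 10.90 and 12.24 in tumors, a difference of +0.24 (SE 0.24, adjusted p = 0.49), with 4 tumors below and 9 above. Tumors thus spread to both sides of the thymi in Psmb9 and Psmb10.

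To ask whether an immunosubunit and its counterpart changed unequally, the difference of their log2 levels was taken within each array. This quantity cancels any shift that both share. Across 3 pairs and 7 comparisons, 21 permutation tests were made (2-sided, with 100000 resamples for tumor against thymus and exact below that size). Unlike the limma fits, these tests took no account of sex, and 17 of 19 tumors but 6 of 12 thymi were female. Psmb8 minus Psmb5 was 1.82 ± 0.61 (SD, n = 19) in tumors and 1.23 ± 0.08 (n = 12) in thymi. The shift of +0.59 had a permutation p of 0.0008 (0.0056 adjusted over the 21), and 14 tumors lay above all thymi and 2 below. Psmb9 minus Psmb6 was -0.49 ± 0.91 in tumors and -1.52 ± 0.21 in thymi, a shift of +1.04 (permutation p = 0.00012, adjusted 0.0025) with 13 tumors above and 1 below. Psmb10 minus Psmb7 was -0.56 ± 1.16 in tumors and -1.87 ± 0.17 in thymi, a shift of +1.32 (permutation p = 0.00034, adjusted 0.0036) with 16 above and 2 below. In each pair the mean difference, not adjusted for sex, was higher in tumors than in thymi.

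These shifts moved with the 3'/5' control ratio. In the 4 tumors whose ratio lay within the thymus range (WT 03, HT 02, HT 06 and KO 05), they were +0.19 for Psmb8 minus Psmb5 (exact permutation p = 0.0341), +0.45 for Psmb9 minus Psmb6 (0.00989) and -0.13 for Psmb10 minus Psmb7 (0.349). Adjusted over the 21 tests, these are 0.358, 0.208 and 0.814, so none passed. The same 4 tumors had the highest mean level of proliferation markers among the tumors, at 12.60 to 12.78, the next being KO 02 at 12.41. None of them was among the tumors of highest B cell marker mean. They thus differed from the other tumors in more than the ratio, and the part of each property in the shifts was not tested. With the ratio as a covariate, as values only, the shifts were +0.21, +0.85 and +0.82. Without the 4 tumors of highest B cell marker mean they were +0.53, +0.67 and +1.01, and without the 4 tumors labelled KO of high Stk38 +0.40, +0.75 and +0.95. The 18 pair comparisons between genotypes gave no adjusted p under 0.05. The one of smallest p was Psmb10 minus Psmb7 for KO against WT thymus, at +0.20 (exact permutation p = 0.0571, adjusted 0.30).

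**Figure D2:**
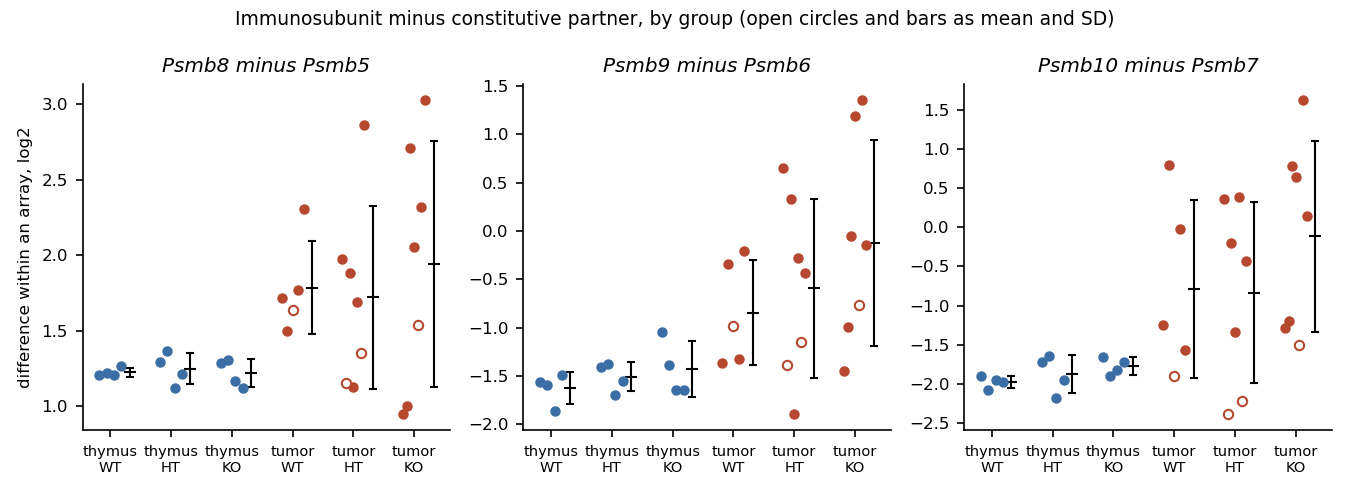
Within-array difference of log2 levels, immunosubunit minus constitutive counterpart, for the 3 pairs in every array of the 6 groups, with group mean and SD as bars and tumors of a thymus-like 3'/5' ratio as open circles. Most tumors lie above the thymi, by a mean of 0.59, 1.04 and 1.32, and the open circles lie nearer to the thymi.

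Over all 43 members, 8 were called between tumors and thymi (18.6%), 7 lower (16.3%) and 1 higher (2.33%). Of all genes tested, 24.2% were called, 12.6% lower and 11.6% higher, so the share of members called is not above that of all genes. Their median difference was -0.24, against +0.05 over all genes, and 34 of 43 were below 0. At an unadjusted p under 0.05, 19 members passed (44.2%), as did 5183 of the 14017 genes (37.0%). The count of 8 was 18 without the sex covariate, 22 with weights per array, 4 without any 1 of the 6 female thymi or tumor WT 04, 5 without tumor HT 04 and 13 without tumor KO 02, 1 of the 2 male tumors.

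The alpha subunits form the outer rings and gate the barrel. All 8 alpha subunits had differences below 0, with a median of -0.20. Only Psma8 was called, an alpha subunit known from the testis, whose mean over all arrays lay just above the filter at 3.61. Its mean was 3.88 in thymi but 3.53 in tumors, below the filter. It was thus tested only through its thymus level, near background, and its call is read with that limit. It was 3.28, 3.90 and 4.12 in thymi and 3.15, 3.54 and 3.73 in tumors, a difference of -0.35 (SE 0.088, limma adjusted p = 0.0048). Among the probe sets used, Psma1 had the largest difference of the ring at -0.59 (adjusted p = 0.052), with 17 tumors below all thymi, and Psma3 the smallest at -0.08. This order depends on the probe set. Without adjustment for sex, second bright probe sets were at -1.25 for Psma6, -0.74 for Psma7 and -0.65 for Psma5. The Psma1 probe set used was at -0.70 on that scale. Among the non-catalytic beta subunits the median was -0.08. They ran from Psmb2 at -0.96 (adjusted p = 0.077) to Psmb3 at +0.43 (adjusted p = 0.11), with Psmb1 at -0.16 and Psmb4 at 0.00, and none was called. A second bright probe set of Psmb4 was at -0.66.

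In the ATPase ring of the cap, which unfolds substrates, 1 subunit rose and 1 fell. Psmc3 was 12.51, 12.61 and 12.79 in thymi and 11.38, 12.21 and 12.63 in tumors. It fell by 0.43 (SE 0.12, adjusted p = 0.014), and 16 of 19 tumors lay below all thymi. Psmc2 was 12.35, 12.46 and 12.53 in thymi and 12.39, 12.83 and 13.72 in tumors, with no tumor below and 14 above all thymi. It rose by 0.45 (SE 0.14, adjusted p = 0.023). A second bright probe set of Psmc2 went the other way, at -0.42, as did second bright probe sets of Psmb3 (-1.23) and Psmc4 (-0.46), so that 3 of the 14 members with another probe set of mean level above 9 had probe sets of opposite sign.

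Of the 11 non-ATPase subunits of the cap, 10 had differences below 0 and 2 were called. Psmd8 was 12.04, 12.14 and 12.34 in thymi and 9.20, 11.27 and 12.13 in tumors, and fell by 0.92 (SE 0.32, adjusted p = 0.034). Psmd6, also of the lid, fell by 0.54 (SE 0.19, adjusted p = 0.041) with the probe set used. A second bright probe set of Psmd6 was at -0.04, where the used one was at -0.62, both without adjustment for sex. Psmd3 stood apart at +0.41 (adjusted p = 0.12), with 11 tumors above all thymi. Psmd7, a lid subunit paired with the deubiquitinase Psmd14, had the widest spread of all members among tumors, from 5.16 to 11.27, against 9.99 to 10.42 in thymi. Its difference was -0.70 (adjusted p = 0.33).

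The chaperones that assemble the cap, which leave the finished particle, included 2 that fell. Psmd10, or gankyrin, was 10.01, 10.38 and 10.66 in thymi and 6.33, 9.49 and 10.42 in tumors, and fell by 1.02 (SE 0.36, adjusted p = 0.039). Psmd5 fell by 0.61 (SE 0.19, adjusted p = 0.019). Psmd9 had a difference of -0.89 (adjusted p = 0.083), with 16 tumors below all thymi. Of the activators, Psme1 of the interferon-inducible PA28 ring was 11.84, 11.95 and 12.12 in thymi and 11.20, 11.97 and 12.75 in tumors, a difference of +0.02 (SE 0.16, adjusted p = 0.93). Psme3, which forms the nuclear PA28 ring, was at -0.37 (adjusted p = 0.19) and Psme4, or PA200, at +0.01 (adjusted p = 0.94). Psmc3ip, a meiotic recombination factor, was at -0.25 and Psme3ip1 at +0.05, and neither was called.

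**Figure D3:**
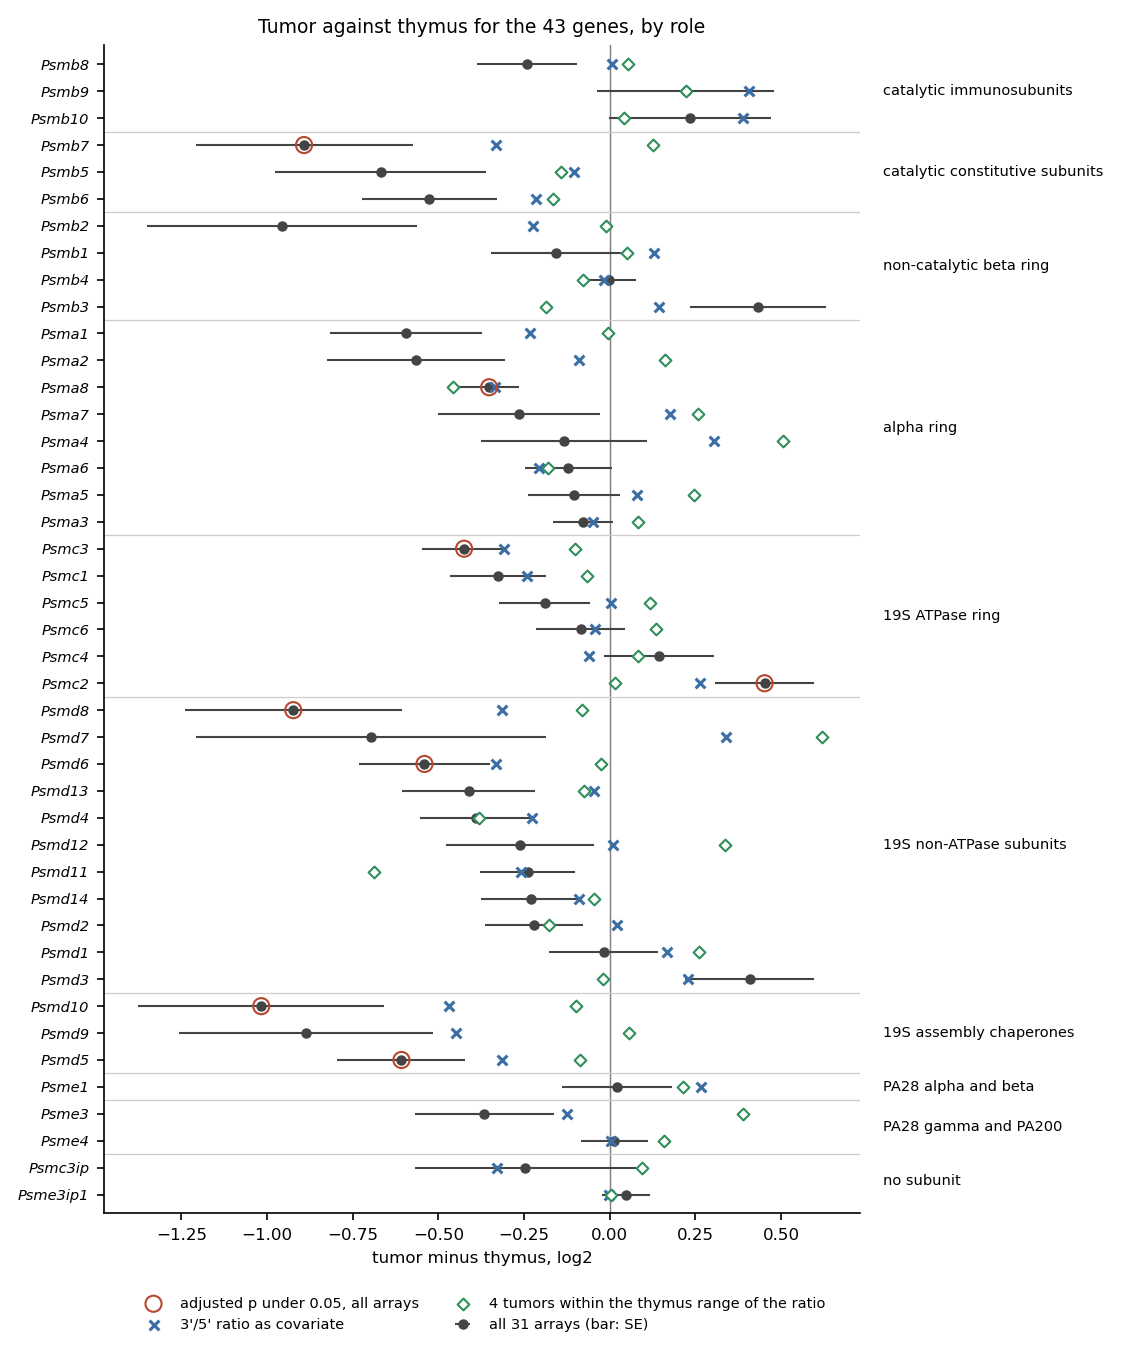
Tumor minus thymus difference of log2 levels for each of the 43 members, grouped by role, as dots with SE, with a red ring where called, a blue cross for the fit with the 3'/5' ratio as covariate and a green diamond for the 4 tumors of thymus-like ratio. Differences run from -1.02 for Psmd10 to +0.45 for Psmc2, and most crosses and diamonds lie nearer to 0 than the dots.

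The tumor differences of these genes moved closely with the 3'/5' ratio. Across the 19 tumors, the median correlation of the members' levels with the ratio was -0.57, against +0.08 over all genes tested, and 23 of 43 members (53.5%) had r below -0.5, against 12.5% of all genes. These are descriptions over tumors that share the ratio as a measured property. The lowest were Psmd7 at -0.94 and Psmd8 at -0.89. Psmb5 had -0.85, Psmb7 -0.81 and Psmb8 -0.80. Psmb9 had -0.27 and Psmb10 -0.29. Psmc2 and Psmb3 went the other way, at +0.58 and +0.67.

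With the ratio as a covariate, 1 member was called, Psma8 at -0.33 (limma adjusted p = 0.014), while 18% of all genes were. Psma8 passed the filter only through its thymus level. The median difference of the members was then -0.05, against +0.01 over all genes. Psmb7 was at -0.33 (adjusted p = 0.29), Psmd8 at -0.32 (0.19) and Psmc2 at +0.26 (0.16). The immunosubunits were at +0.01 for Psmb8, +0.41 for Psmb9 and +0.39 for Psmb10.

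Against the 4 tumors of thymus-like ratio, 10 members were called and 48.2% of all genes. Of the 8 members called over all tumors, only Psma8, which passed the filter only through its thymus level, was among them. Those that rose were Psmd7 at +0.62 (limma adjusted p = 0.00032), Psma4 at +0.50, Psme3 at +0.39, Psmd12 at +0.34, Psmd1 at +0.26, Psma7 at +0.26 and Psma5 at +0.25. Psmd11 fell by 0.69, Psma8 fell by 0.46 and Psmd4 fell by 0.38. The median over the members was +0.02, against +0.03 over all genes, and the catalytic subunits lay between -0.17 for Psmb6 and +0.22 for Psmb9, none of them called. These 4 tumors were 1 labelled WT, 2 HT and 1 KO. They were also the tumors of highest proliferation marker mean, and the part of that in these differences was not tested. Without the 4 tumors of highest B cell marker mean, 8 members were called (33.4% of all genes), Psmb7 and Psmd6 giving way to Psma1 and Psmd3. Without the 4 tumors labelled KO of high Stk38, 6 were called (26.6% of all genes).

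**Figure D4:**
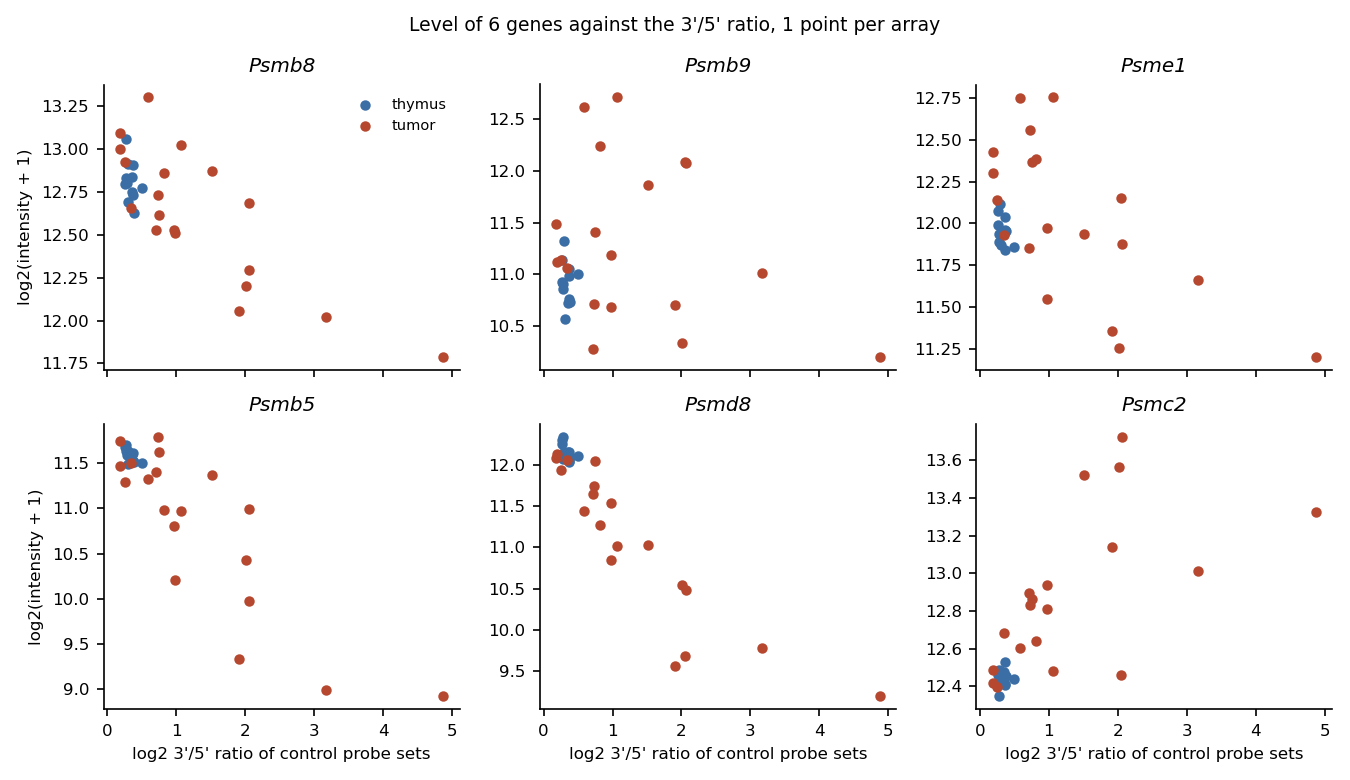
Level of Psmb8, Psmb9, Psme1, Psmb5, Psmd8 and Psmc2, log2(intensity + 1), against the log2 3'/5' control ratio in all 31 arrays, with thymi in blue and tumors in red. Thymi cluster at ratios of 0.26 to 0.50, and across tumors Psmd8 and Psmb5 descend towards the tumor of highest ratio, at 4.87, while Psmb9 scatters.

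Within 1 genotype, no member was called between tumors and thymi. Of all genes, 6.56% were called within WT, 3.5% within HT and 4.76% within KO. Unadjusted p-values under 0.05 numbered 3, 1 and 7 among the members (6.98%, 2.33% and 16.3%), against 21.7%, 15.1% and 19.6% of all genes. The members' median differences were -0.17, -0.24 and -0.32. The difference between genotypes in the tumor effect was tested by interaction terms. It was called for 0% of all genes and no member, whether HT or KO was set against WT, with 0 members at an unadjusted p under 0.05 (147 and 119 of all genes). Without the 4 tumors labelled KO of high Stk38, no member was called within KO or by the interaction of KO against WT. Unadjusted limma p-values under 0.05 then numbered 4 members within KO (9.3%, against 19.1% of all genes). For the interaction they also numbered 4 (9.3%, against 3.35%).

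Among tumors, no member differed between genotypes by the test. Of all genes, 0% were called in each of the 3 comparisons, while 473 (KO and WT), 390 (HT and WT) and 154 (KO and HT) had an unadjusted p under 0.05. Among members 1, 0 and 0 did. The one was Psmc3ip, at -1.35 (SE 0.56, unadjusted p = 0.028, limma adjusted p = 0.87). The median over members for KO against WT was -0.19, against +0.01 over all genes, and 34 of 43 were below 0. Without the 4 tumors labelled KO of high Stk38 it was +0.33, with 32 of 43 above 0, and again 0 members and 0% of all genes were called. The sign of that median changed without these 4 tumors, which also differed from the 3 kept in the log2 3'/5' ratio (1.07 to 3.17 against 0.18 to 0.75) and held 2 of the 4 tumors of highest B cell marker mean. What moved the median was not tested. For KO against HT it went from -0.15 to +0.36. Psmb8 averaged 12.61 ± 0.30 (n = 5) in WT tumors, 12.70 ± 0.48 (n = 7) in HT tumors and 12.54 ± 0.42 (n = 7) in those labelled KO, and these means differed by less than their SDs. Psmb9 averaged 11.04 ± 0.57, 11.37 ± 0.96 and 11.45 ± 0.74, and Psmb10 10.98 ± 0.75, 10.95 ± 0.84 and 11.09 ± 0.52.

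Subunits of the core varied together from tumor to tumor. In a family of 15 relations over the 19 tumors, Psmb5 correlated with Psmb6 (r = 0.91, rho = 0.87, permutation p = 1e-05, the smallest that 100000 resamples give, adjusted 5e-05) and with Psmb7 (r = 0.87, rho = 0.82, permutation p = 2e-05, adjusted 5e-05). It did so with the alpha subunit Psma5 (r = 0.83, rho = 0.89, permutation p = 4e-05, adjusted 8.6e-05) and the base subunit Psmd1 (r = 0.68, rho = 0.68, permutation p = 0.0018, adjusted 0.0034). Without the 2 tumors farthest from the median of Psmb5 (HT 07 and KO 07) these r were 0.90, 0.84, 0.85 and 0.54. Nfe2l1, which encodes NRF1, ran opposite to Psmb5 (r = -0.55, rho = -0.55, permutation p = 0.015, adjusted 0.021; without those 2 tumors -0.60). The proteasome members among these genes also vary with the 3'/5' ratio, with which Psmb5 had r = -0.85 (rho = -0.78, permutation p = 2e-05, and r = -0.71 without the 2 tumors). The relation of Nfe2l1 to the ratio was not tested.

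Psmb8 followed Psme1 (r = 0.84, rho = 0.82, permutation p = 1e-05, adjusted 5e-05) and its own counterpart Psmb5 (r = 0.84, rho = 0.68, permutation p = 2e-05, adjusted 5e-05). Without the 2 tumors farthest from the median of Psmb8 (HT 07 and HT 01) these r were 0.76 and 0.82. Its relation to the other immunosubunits was looser, with r = 0.63 for Psmb9 (rho = 0.63, permutation p = 0.0041, adjusted 0.0068) and r = 0.59 for Psmb10 (rho = 0.54, permutation p = 0.0076, adjusted 0.011). Without the 2 tumors these were 0.46 and 0.37. With the ratio, Psmb8 had r = -0.80 (rho = -0.70, permutation p = 1e-05; without the 2 tumors -0.76). Relations of Psmb8 to the interferon-induced factor Irf1 (r = 0.00), to Nlrc5 (r = -0.23, permutation p = 0.34), to the peptide transporter gene Tap1 (r = -0.16) and to the B cell marker mean (r = 0.05) did not pass. For the relations that passed, the permutation p of rho lay between 1e-05 and 0.0181. Without the 4 tumors of highest B cell marker mean, r of Psmb8 was -0.45 with Irf1, -0.81 with Nlrc5, -0.60 with Tap1 and -0.56 with the marker mean.

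The 4 tumors of highest B cell marker mean ranked highest of the 19 in Psmb9, at 12.09 to 12.71 against 10.21 to 12.08 in the other 15, with almost no gap between. They were also the 4 highest in Irf1, at 11.99 to 12.44 against 9.90 to 11.72, and in Nlrc5, at 11.68 to 12.18 against 4.86 to 10.60. In Psmb8, Psmb10 and Psme1, 2 of them were among the 4 highest. Psmc3ip was lowest in these tumors, at 6.50 to 7.89 against 8.89 to 10.17. The tumors were grouped by their marker level after the data were seen, so these ranges are descriptions. The same 4 tumors were highest in the mean of the NK and cytotoxic markers, at 7.51 to 9.83 against 4.86 to 5.99, and of the neutrophil markers, at 7.35 to 9.06 against 3.70 to 6.40. They were also highest in the mean of the macrophage and dendritic cell markers, at 8.06 to 9.52 against 6.15 to 8.03. Their mean of the proliferation markers was lowest, at 9.59 to 10.94 against 11.35 to 12.78. The part of B lineage or other cells, or of proliferation, in the ranges of Psmb9, Irf1, Nlrc5 and Psmc3ip was not tested.

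**Figure D5:**
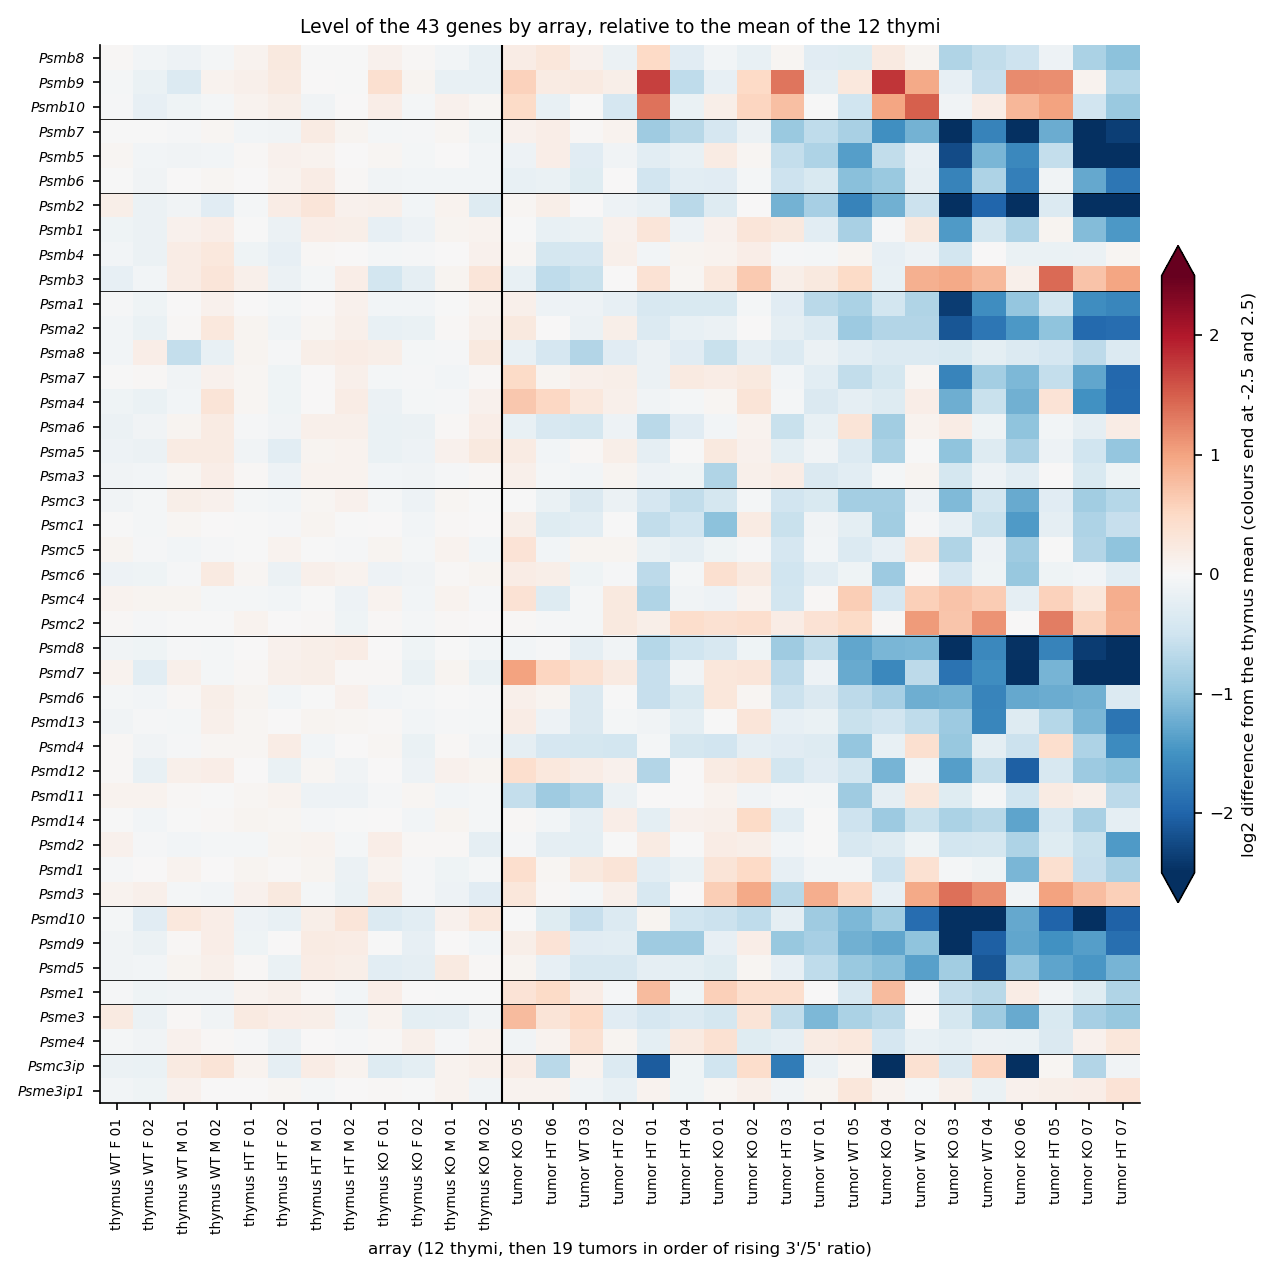
Level of each of the 43 members in the 31 arrays minus its mean over the 12 thymi, in log2 units, with members grouped by role, thymi on the left and tumors on the right, ordered by rising 3'/5' ratio. Colours (red higher, blue lower) end at -2.5 and 2.5. Blue deepens towards the tumors of highest ratio for most subunits, and Psmc3ip is low in 4 tumors.

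The pathways around the proteasome were read from lists of other genes. Between tumors and thymi, 24.2% of all genes tested were called, 12.6% lower and 11.6% higher. Of 7 assembly factors and inhibitors, none was called between tumors and thymi, and Pomp, which matures the core, was at -0.11 (limma adjusted p = 0.59). In the 4 tumors of thymus-like ratio, 6 of these 7 were called higher, as were 24.8% of all genes. Of 4 genes of the NRF1 axis, Ngly1, the glycanase that processes NRF1, fell by 0.52 (adjusted p = 0.046), and Nfe2l1 was at +0.25 (adjusted p = 0.32). The call of Ngly1 was lost with the ratio as a covariate (-0.31, adjusted p = 0.26) and in the 4 tumors of thymus-like ratio (-0.26, adjusted p = 0.10). Of 7 proteasome deubiquitinases and shuttles, Ubqln4 rose by 1.17 and the ubiquitin ligase Ube3c fell by 0.63, a share of calls near that of all genes. In the 4 tumors they were at +0.27 and -0.08, and Ube3c was not called (adjusted p = 0.63).

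Of 12 MHC class I presentation genes, only Tapbpl, a peptide editor, was called, at +0.90 (adjusted p = 0.0047), where 24.2% of all genes were called. Tap1 was at +0.46 (0.39), Tap2 at +0.26 (0.41) and Nlrc5 at -0.69 (0.52). In the 4 tumors of thymus-like ratio 4 of the 12 were called higher and 5 lower, against 24.8% and 23.3% of all genes. There Tap1 was at -0.64 (limma adjusted p = 0.000103) and Nlrc5 at -3.18 (limma adjusted p = 4.45e-05). Of 10 interferon signalling genes, 4 fell and 1 rose, against 12.6% and 11.6% of all genes. Socs1, a feedback inhibitor of the pathway, fell by 3.24, the receptor chains Ifngr1 and Ifngr2 fell by 1.49 and by 1.37, and the kinase Jak1 fell by 0.80. Irf1 rose by 0.78 (adjusted p = 0.037). With the ratio as a covariate, neither Jak1 (-0.39, adjusted p = 0.19) nor Irf1 (+0.65, adjusted p = 0.13) was called, and in the 4 tumors Irf1 was at +0.07. Of 10 interferon-gamma-induced genes, the GTPase gene Igtp fell by 1.05 (adjusted p = 0.014), and none rose. Igtp was not called with the covariate (-0.95, adjusted p = 0.051). In the 4 tumors of thymus-like ratio 7 of the signalling genes and 7 of the induced genes were called lower and none higher, where 23.3% of all genes were called lower. Without the 4 tumors of highest B cell marker mean, 7 and 6 were called lower and 1 signalling gene higher (16.9% and 16.5% of all genes).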

How the data were processed

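Per the submitters' processing notes, the authors made the values with GCRMA (no version given in the sources used here). The deposited unit is linear intensity per probe set, and every array had the same median intensity (20.0). The labels' protocol names a whole-transcript target assay, whereas this array reads 3' ends. Per the probe annotation, 34944 probe sets name 1 gene, 932 several and 9224 none.

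The log2 of each value plus a pseudocount of 1 was taken. Each gene took its probe set of highest mean, and genes with a mean above the 25th percentile (3.61) were tested. Fits used limma 3.58.1 in R 4.3.3 (lmFit, eBayes, sex as covariate, Benjamini-Hochberg adjustment): the 12 thymi, the 19 tumors, and all 31 arrays for tumor against thymus as the mean of the 3 genotypes' differences. They were tested on simulated data. Permutation tests used scipy 1.17.1, without a covariate. The number of arrays limits the precision.

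The members and lists were chosen with earlier results of these data known. Named were the catalytic subunits, Psme1, Psme3, Psme4 and Stk38, members called (or of smallest p), extremes of role groups, up to 4 called genes per other list, and Irf1, Nlrc5, Tap1, Tap2, Nfe2l1 and Pomp; others were chosen after their values were seen, such as Psmd7 and Psmc3ip. Alternatives covered pseudocount, filter, probe set choice, normalization, covariates and single arrays left out. Those on the 3'/5' ratio range and on Stk38 in tumors labelled KO were added after seeing the data.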

Additional observations from a re-analysis of the deposited data

Results flagged for a closer look

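In 3 of the 114 combinations of a group and a quantity checked (19 quantities, 6 groups), 1 sample lay far from the rest of its group; chance gives about 1 in 20. Psmb5 was 8.925 in tumor HT 07, against 10.98 to 11.74 in the other HT tumors. Psmb6 was 10.64 in the same tumor, against 11.91 to 12.45. This tumor had the highest 3'/5' control ratio of all arrays, at 4.87, and the part of the ratio in these levels was not tested. The PA28 gene Psme1 was 12.12 in the female KO thymus F_01, against 11.94 to 11.96 in the other KO thymi.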

How the results depend on the processing

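Of 8 members called between tumors and thymi, the number was 18 without the sex covariate, 22 with limma's arrayWeights and 1 with the 3'/5' ratio as covariate. It ran from 4 to 13 with 1 array left out, being 4 without each female thymus or tumor WT 04, 5 without tumor HT 04 and 13 without tumor KO 02. Psma8 was called in all 12 settings that could test it, although its tumor mean lay below the filter. In all 31 with 1 array left out, Psma8, Psmc2, Psmc3 and Psmd5 were called, Psmb7 in 22 and Psmd6 in 20. Within WT, where 0 were called, it was 1 with the mean of all probe sets or without sex, 14 with arrayWeights and 0 to 2 with 1 array left out (2 without tumor WT 03). Within HT it was 1 with arrayWeights. Within KO it was 1 with no filter, the mean of probe sets, quantile normalization, centring or eBayes with trend and robust, 2 without sex or without the 4 tumors of highest B cell marker mean, 7 with arrayWeights and 0 to 2 with 1 array left out (2 without tumor KO 05; 1 without thymus WT M_01, tumor WT 03, tumor HT 05 or tumor HT 07). Signs turned for Psmb7 (+0.13) and Psme3 (+0.39) in the 4 tumors of thymus-like ratio and for Psmc2 (-0.12) with the mean of its probe sets. In those 4 tumors the pair shifts were +0.19, +0.45 and -0.13. The cause of these changes was not tested.

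With the replicate block, 0 members were called in each of the 6 genotype comparisons, as without it. Same-numbered samples correlated by -0.21 to 0.12 in thymi and -0.58 to 0.42 in tumors (1 of 12 and 4 of 17 pairs above 0.1). These values cannot settle whether such samples share more than a number. Psmc2, Psmb3 and Psmc4 depend on the probe set in sign, Psmd6 (-0.04 with its second bright probe set) and Psmb4 among others in size. Psma8 lies near background.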

Other observations

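The genes whose level across the 19 tumors was most like that of Psmb8 were Ebp, a sterol isomerase (r = 0.896), Pdia3, a chaperone of MHC class I loading in the endoplasmic reticulum (r = 0.896), Ssr4, a part of the translocon-associated complex (r = 0.888), Ptprcap, which binds the leukocyte phosphatase CD45 (r = 0.886), and Mtmr1, a lipid phosphatase (r = 0.87). These r are descriptions over tumors that share the 3'/5' ratio, with which Psmb8 had r = -0.80.

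Some members lie on the chromosome of the targeted gene. In the RefSeq order of protein-coding genes on chromosome 17 (assembly GRCm38.p6), Psmb9 is 111 genes from Stk38, Tap1 112, Psmb8 113 and Tap2 114, while Psmb1 is 285 genes away on the other side. None of these was called between thymus or tumor genotypes.

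Across the tumors, the cap chaperones had a median within-group SD of 1.11, and Psmd9 ran from 4.80 in tumor KO 03 to 9.75 in tumor HT 06, against 9.21 to 9.61 in thymi. Psme3ip1 had the smallest SD of the members in tumors, at 0.14, and ran from 10.27 to 10.79.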
